A study of Mus musculus with 191 samples.

Results

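The daily rhythm of gene expression was described in ear skin of mice labelled Mrp8CRE; Bmal1-flox, from 15 RNA sequencing libraries of 191 in the series. These 15 are all libraries of that genotype, with 1 mouse at each Zeitgeber time (ZT, hours after lights on) of 1, 3, 4, 5, 7, 9, 10 and 12 h and then of 13, 15, 18, 19, 21, 22 and 24 h, and none at ZT 16. They carried no neutropenia model and no treatment per the labels. Ears were taken after the mice were perfused with saline. Beside them stand 16 ear skin libraries labelled Mrp8CRE; iDTR, from mice given diphtheria toxin at 10 µg per kg on 2 days, and 16 labelled as wild-type C57BL/6 with the toxin, here called the labelled controls. The labels give no age, and mention cabinets with inverted light for mice of the series without saying that ear skin mice were kept in them.

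BMAL1, the protein of the gene Arntl, pairs with CLOCK or NPAS2 and switches on genes that carry E-boxes, among them the Per and Cry repressors, Nr1d1, Nr1d2 and Dbp. PER and CRY proteins then inhibit the pair, while NR1D1 and NR1D2 repress Arntl, which closes a loop of about a day. Mrp8CRE uses the promoter of the alarmin gene S100a8 and is known to act mainly in neutrophils, so keratinocytes, fibroblasts and the other cells of the ear are meant to keep Arntl. Each gene was fitted with a 24 h cosine and sine in the Bmal1-flox libraries alone. A rhythm was called where limma's F test had an adjusted p under 0.05. Peak hours are in ZT, an amplitude is on the log2(value + 1) scale, and a fold of a rhythm is fitted peak over fitted trough on that scale. Values are the authors' normalised signal, close in scale to CPM. With 1 mouse per ZT, differences between mice and between hours cannot be told apart except through the fitted wave.

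The recovered depth was 7.68 to 23.9 M (mega) counts in Bmal1-flox libraries, 11.3 to 25.4 M in iDTR libraries and 10.3 to 17.6 M in labelled controls. The transcript Gt(ROSA)26Sor, from the locus into which the iDTR transgene is built, was at 21.0 to 30.2 in Bmal1-flox skin, 0.242 to 1.53 in iDTR skin and 0.225 to 1.83 in labelled controls. The labelled controls thus lay with the iDTR libraries and against their wild-type label. Arntl in whole skin is no check of a deletion in neutrophils, whose share of the RNA was not measured. S100a8 was at 1.01 to 14.7 in Bmal1-flox skin, with a median of 3.98, against a median of 4.08 in labelled controls. The Bmal1-flox library of ZT 4 carried liver transcripts such as Alb, whose 6 tested genes, picked after the data were seen, summed to 2022 there and to 12.5 or less in the other Bmal1-flox libraries. That of ZT 24 had 16 hair follicle and nail genes summing to 1311, against a Bmal1-flox median of 55.2. Without both libraries the main count below was 97 genes.

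In Bmal1-flox skin 81 genes were rhythmic, which is 0.508% of the 15946 genes tested, and 1792 genes (11.2%) had an unadjusted p under 0.05. The clock led the list. Of 19 core clock genes tested, 14 were called: 3 of 5 activators, 9 of 11 repressors and 2 of 3 output factors of the PAR bZIP family. Folds over the 81 genes were 1.23 to 10.1, with a median of 1.69, and 25 genes reached 2-fold. The median amplitude was 0.38 among called genes and 0.08 over all genes tested, a gap that calling by the same wave imposes. The count was 50 without the library of ZT 3 and 53 without that of ZT 13, and 52 with the spread shared by all 3 skin groups.

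Among the activators, Arntl itself cycled (ENSMUSG00000055116, GRCm38 chromosome 7, 113207465 to 113314126). Its value was lowest at ZT 13 with 18.4, had a median of 46.9 and was highest at ZT 4 with 60.8. The next lowest library was ZT 15 with 21.6, and values were at or above the median from ZT 19 through ZT 5. The fitted peak was at 1.26 h (SE 0.473), with a fold of 2.31 (limma adjusted p = 0.00112). In labelled controls Arntl ran from 19.3 at ZT 10 to 62.4 at ZT 24, with a median of 38.5, a peak at 0.733 h and a fold of 2.23 (limma adjusted p = 6.09e-05). The amplitude of Arntl differed by 0.03 (SE 0.0934) between Bmal1-flox skin and labelled controls, and its waves did not pass the test of a difference (limma adjusted p = 0.985).

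Npas2, which encodes the partner that can replace CLOCK, was lowest at ZT 18 with 8.82, had a median of 16.0 and was highest at ZT 3 with 35.0. It peaked at 2.02 h (SE 0.363) with a fold of 3.14 (limma adjusted p = 5.76e-05). Clock had a shallow wave, 80.7 at ZT 13 and 127 at ZT 3, with a fold of 1.35 and a peak at 23.9 h (limma adjusted p = 0.0377). The Clock call ended in 15 of 29 alternatives, adjusted p lying between 0.00135 and 0.509. Rora encodes a nuclear receptor that activates Arntl, and it was not called (limma adjusted p = 0.837), with a fitted fold of 1.07.

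The nuclear receptor gene Nr1d1 (ENSMUSG00000020889, chromosome 11, 98767932 to 98775333) was the first repressor to peak, at 7.69 h (SE 0.257). It ran from 68.1 at ZT 21 through a median of 120 to 240 at ZT 9, a fold of 3.45 (limma adjusted p = 1.01e-06). Its relative Nr1d2 followed at 11.8 h with a fold of 2.07 (limma adjusted p = 1.42e-05). Ciart, a repressor of the BMAL1 pair, peaked at 10.9 h (2.89-fold). Bhlhe40 and Bhlhe41, basic helix-loop-helix repressors that compete for E-boxes, had peaks at 11.6 and 12.0 h, with folds of 1.89 and 2.38.

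The Period genes came next. Per3 peaked at 13.0 h with a fold of 2.44, from 52.2 at ZT 3 to 146 at ZT 13 (limma adjusted p = 2.63e-05). Per2 (ENSMUSG00000055866, chromosome 1, 91415982 to 91459324) was lowest at ZT 24 with 12.8, had a median of 32.6 and was highest at ZT 12 with 61.5. All Per2 values of ZT 10 through ZT 18 were above its median, and its peak was at 14.2 h (3.22-fold, limma adjusted p = 0.00059). Per1 was not called (limma adjusted p = 0.253). Its values lay between 82.4 and 241 with a fitted peak at 13.2 h.

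Cry1 peaked after the Period genes. It ran from 27.5 at ZT 5 through a median of 39.6 to 65.0 at ZT 18 with a peak at 19.9 h (1.95-fold, limma adjusted p = 0.00121). Cry2 was not called (limma adjusted p = 0.295, fold 1.23, peak 11.5 h). Nfil3 encodes a repressor that shares DNA sites with DBP. It peaked opposite to Dbp at 23.0 h, from 6.56 at ZT 9 to 23.8 at ZT 24 (2.49-fold, limma adjusted p = 2.63e-05).

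The largest rhythm was that of Dbp, an output factor switched on by the BMAL1 pair (ENSMUSG00000059824, chromosome 7, 45705088 to 45710203). Dbp had 9.40 at ZT 24, a median of 33.5 and 131 at ZT 9. Values stayed high from ZT 9 through ZT 15 and were low from ZT 21 through ZT 1. The fitted peak was at 11.3 h (SE 0.187) with a fold of 10.1 (limma adjusted p = 3.99e-09). Tef, of the same family, peaked at 12.9 h with a fold of 2.02 (limma adjusted p = 6.1e-06), and Hlf was not called (limma adjusted p = 0.558, fold 1.13). Exons of Nr1d1 overlap those of Thra on the other strand by up to 263 bases, and those of Dbp overlap Sphk2 by up to 539 bases. The sources do not say that counting used strand, so reads there cannot be assigned to 1 gene of the pair.

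**Figure D1:**
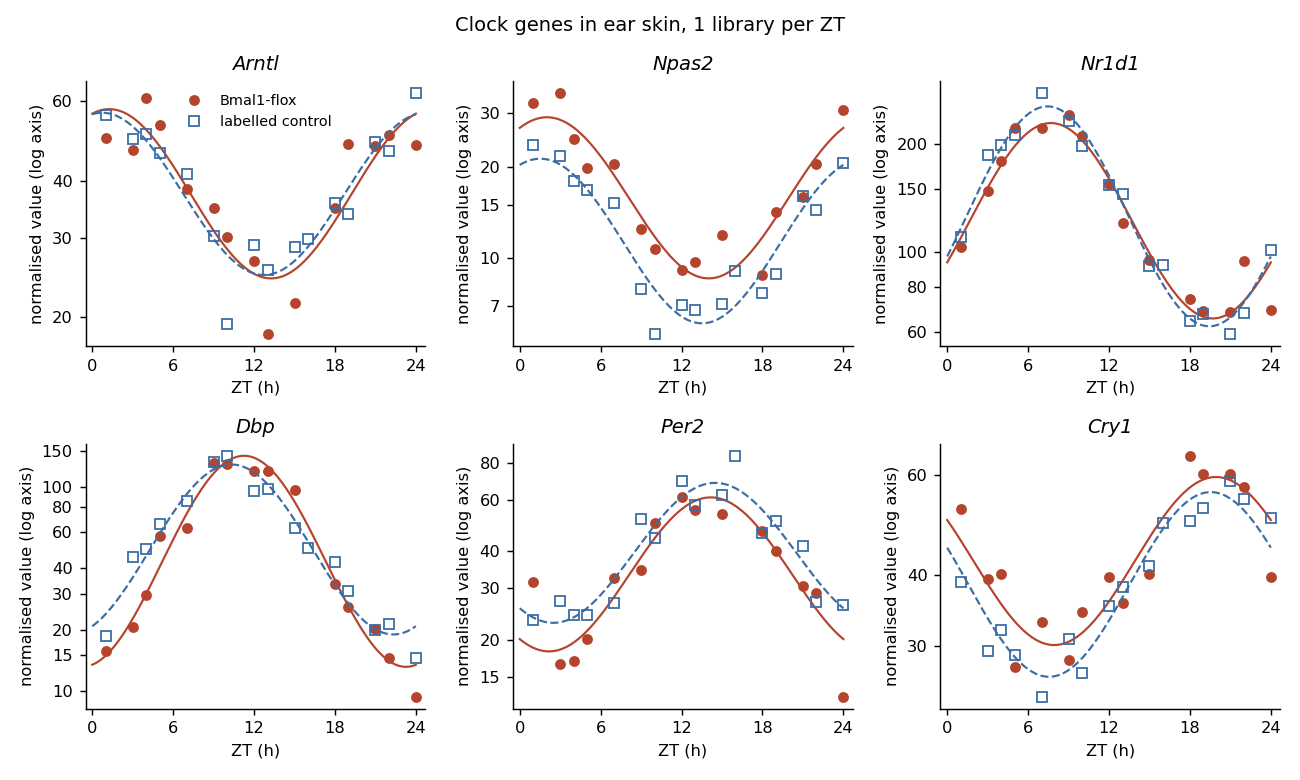
Normalised values (log axis) of 6 clock genes against ZT in hours, with 1 point per library and the fitted 24 h wave, for Bmal1-flox (filled circles, solid lines) and labelled controls (open squares, dashed lines). Arntl and Npas2 are high near ZT 0, Nr1d1 peaks at 7.69 h, Dbp at 11.3 h, Per2 at 14.2 h and Cry1 at 19.9 h in Bmal1-flox skin.

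Start sites of 12 of the 14 called clock genes, all but Per2 and Bhlhe40, were matched in RefSeq windows (GRCm38.p6), and the 250 bases before each start were searched. The E-box letters CACGTG, which read the same on both strands, were in 4 of the 12 genes, against 6.86% of all 27025 genes with a window. The D-box letters TTATGNAA, searched on both strands, were in 1 of 12, against 3.63%, and the ROR half-site letters AGGTCA, searched on both strands, in 3 of 12 (Clock, Nr1d2 and Nfil3), against 15.8%. No match of 1 motif overlapped that of another in these windows. A match is a run of letters and was not tested as a binding site. The stretches below are shown because they carry the E-box or D-box letters near the starts of called clock genes, with the matches in capitals. Dbp and Nr1d1, the clock genes with the smallest p of the rhythm, had no E-box match in the bases searched. Stretches are 5′ to 3′ on the strand of the gene, cut where the annotation places a UTR.
Ciart, chr3:95882252-95882374, minus strand, E-boxes 116, 58 and 44 bases before the start: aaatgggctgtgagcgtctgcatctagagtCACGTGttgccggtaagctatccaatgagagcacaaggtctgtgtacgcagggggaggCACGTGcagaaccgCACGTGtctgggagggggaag
Bhlhe41, chr6:145865559-145865603, minus strand, E-box 153 bases before the start: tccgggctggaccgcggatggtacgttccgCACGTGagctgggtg
Tef, chr15:81811246-81811311, plus strand, E-box 138 bases before the start: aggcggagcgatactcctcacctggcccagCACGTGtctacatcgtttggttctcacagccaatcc
Cry1, chr10:85185079-85185144, minus strand, E-box 60 bases before the start: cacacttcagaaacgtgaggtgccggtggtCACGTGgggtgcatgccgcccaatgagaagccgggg
Per3, chr4:151044786-151044900, minus strand, D-boxes 205 and 158 bases before the start: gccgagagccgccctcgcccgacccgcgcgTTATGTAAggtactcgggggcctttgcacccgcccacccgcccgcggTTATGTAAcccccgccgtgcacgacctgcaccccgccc
Ciart, with 3 E-boxes, peaked at 10.9 h, Bhlhe41 and Tef at 12.0 and 12.9 h, and Cry1, with 1 E-box, at 19.9 h.

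Whether the clock of Bmal1-flox skin ran at other hours than that of labelled controls was asked gene by gene. The groups differ in toxin and in Gt(ROSA)26Sor along with the floxed gene, which cannot be told apart here. In labelled controls 72 genes (0.452%) were rhythmic, or 39 without a mean-variance trend, and 14 of 19 core clock genes were called. Both groups called 22 genes, 27.2% of the 81 and 30.6% of the 72, and 12 of the 22 were core clock genes. Of those 12, 11 had a later fitted peak in Bmal1-flox skin. The difference of peaks, Bmal1-flox minus labelled control, ran from -0.323 h in Per2 to 1.66 h in Bhlhe41 with a median of 0.713 h, and 3 of 12 exceeded 2 SE. Dbp peaked at 11.3 h in Bmal1-flox skin and at 10.3 h (SE 0.223, 6.50-fold) in labelled controls. Tef peaked at 12.9 h in Bmal1-flox skin and at 11.9 h in labelled controls. The genes share their libraries, so the 12 differences are not independent.

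The difference of waves itself was called for no gene of 15946 (0%), with 833 genes (5.22%) at an unadjusted p under 0.05 and 0 calls with voom weights. Among core clock genes 3 had an unadjusted p under 0.05 and the smallest adjusted p was 0.826. The smallest p-values over all genes were those of Gm37404 and Sfrp2 (adjusted p = 0.193 each) and Galnt2 (adjusted p = 0.484). Sfrp2, which encodes a secreted modulator of Wnt signalling, ran from 44.1 to 89.1 with a fitted peak at 18.1 h in Bmal1-flox skin and from 36.2 to 86.9 with one at 6.56 h in labelled controls. Galnt2 encodes an enzyme that starts O-linked glycosylation. It peaked at 16.2 h in Bmal1-flox skin, where it was called (2.48-fold, limma adjusted p = 0.00383), and its fitted peak in labelled controls, not called there, was at 8.67 h (limma adjusted p = 0.247).

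**Figure D2:**
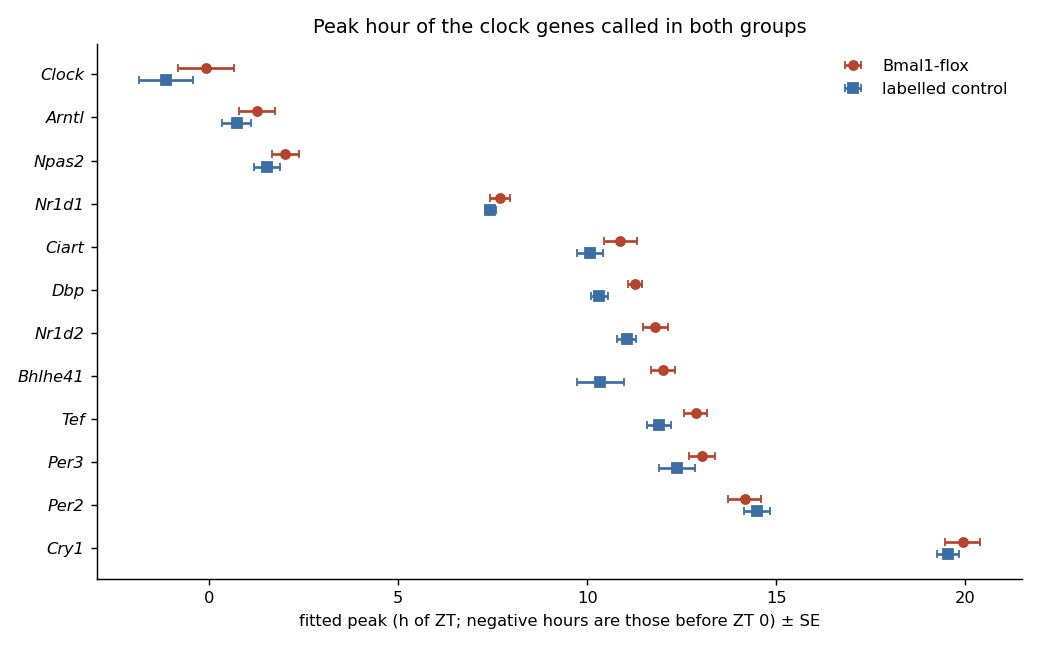
Fitted peak hour with its SE for the 12 clock genes called in both groups, Bmal1-flox (circles) above labelled controls (squares) for each gene. All pairs but that of Per2 have the Bmal1-flox peak to the right, by up to 1.66 h.

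In iDTR skin 15 genes (0.0941%) and 4 of 19 core clock genes were rhythmic, a count of genes that was 5 without a mean-variance trend, 615 with array weights and 1731 with the 3 groups sharing the spread. Against iDTR skin 6 genes (0.0376%) had a different wave, among them Dbp and Nfil3 (limma adjusted p = 0.0345 each). Dbp peaked at 11.3 h with an amplitude of 1.67 in Bmal1-flox skin and at 9.36 h with an amplitude of 0.87 in iDTR skin. Nfil3 had an amplitude of 0.66 in Bmal1-flox skin and 0.07 in iDTR skin, where it had no called wave (limma adjusted p = 0.894). This count was between 0 and 346 over the alternatives, and the 2 groups also differ in toxin and in Gt(ROSA)26Sor, which cannot be told apart from the floxed gene.

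Peaks of the 81 genes fell most often between 12 and 18 h. Between 12 and 15 h 17 genes peaked and between 15 and 18 h 24 genes, 21.0% and 29.6% of the 81, against 12.5% and 12.8% of all genes tested. The hours 0 to 3 held 12 genes and 9 to 12 held 10, while 6 to 9 held 2. Of the 72 genes called in labelled controls, 8 and 4 peaked in the 2 bins from 12 to 18 h and 12 peaked between 6 and 9 h. No test was made of the difference between these distributions.

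**Figure D3:**
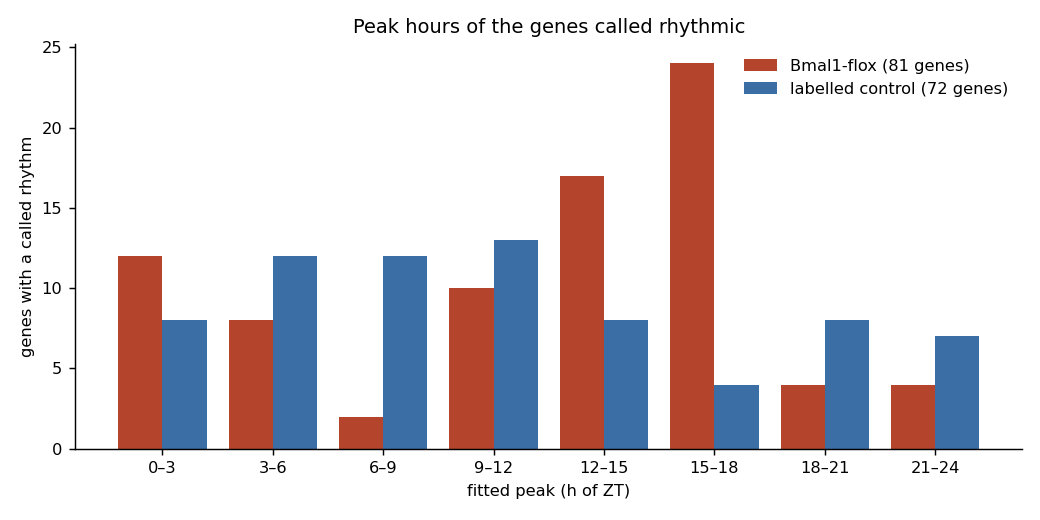
Number of genes with a called rhythm by fitted peak hour, in bins of 3 h, for Bmal1-flox (81 genes, left bars) and labelled controls (72 genes, right bars). In Bmal1-flox skin the bins from 12 to 18 h hold 17 and 24 genes.

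Genes of DNA replication load and fire the replicative helicase, copy DNA and assemble chromatin on it. Of 30 tested, 7 were called, against 0.508% of all genes, and 17 had an unadjusted p under 0.05, against 11.2%. The called genes were Mcm2, Mcm3, Mcm4 and Mcm5 of the helicase, the loading factors Cdt1 and Cdc6, and Chaf1a of the chromatin assembly factor, with peaks between 14.01 and 15.6 h. Fitted peaks of 28 of the 30 lay between 12 and 18 h, a window that held 25.3% of all genes tested. Mcm2 (ENSMUSG00000002870, chromosome 6, 88883474 to 88898780) ran from 17.0 at ZT 4 through a median of 23.4 to 35.3 at ZT 13. Its values were highest from ZT 12 through ZT 18, and its peak was at 15.1 h (SE 0.463, 1.73-fold, limma adjusted p = 0.00143). Mcm5 ran from 23.0 at ZT 5 to 41.6 at ZT 13 (1.56-fold, limma adjusted p = 0.00318). Cdt1 ran from 11.8 at ZT 4 to 19.5 at ZT 13 (1.59-fold, limma adjusted p = 0.00347).

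In labelled controls none of the 30 was called, against 0.452% of all genes, and 5 had an unadjusted p under 0.05, against 11.8%, with 19 of 30 fitted peaks between 12 and 18 h. Mcm2 had an amplitude of 0.40 in Bmal1-flox skin and 0.15 in labelled controls (limma adjusted p = 0.579 there). No wave of the 7 genes called in Bmal1-flox skin passed the test of a difference from labelled controls (limma adjusted p of at least 0.826). Replication genes share their libraries, so their counts are not of independent genes. The number of replication genes called in Bmal1-flox skin was 4 to 9 when 1 library was left out, 4 without ZT 3 and 9 without ZT 19, and 6 without ZT 4 and ZT 24. Exons of Chaf1a overlap those of Ubxn6 on the other strand by up to 2542 bases.

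Of 25 mitosis genes none was called, against 0.508% of all genes, while 15 had an unadjusted p under 0.05, against 11.2%, and all 25 fitted peaks lay between 3.92 and 9.72 h. The smallest p was that of Nusap1, which encodes a spindle protein (limma adjusted p = 0.0753), with 14.04 at ZT 18, a median of 20.8 and 27.6 at ZT 3, and a fitted peak at 7.13 h. Aurka, encoding the spindle kinase Aurora A, had a fitted peak at 7.46 h (limma adjusted p = 0.143). Without ZT 4 or without ZT 24, 1 was called. In labelled controls 2 of 25 had an unadjusted p under 0.05, against 11.8% of all genes, and the Nusap1 peak was at 3.97 h. Fitted peaks there were between 0 and 6 h for 14 of the 25, 6 and 12 h for 10, and 18 and 24 h for 1. These windows held 22.8%, 26.2% and 27.4% of all genes tested in labelled controls. Mitosis genes too share their libraries. The cyclin gene Ccnd2, which serves entry into the cell cycle, was called with a peak at 12.1 h, from 192 at ZT 24 to 475 at ZT 10 (1.76-fold, limma adjusted p = 0.00294). Wee1, encoding a kinase that holds back mitosis and a known target of the clock, peaked at 15.4 h (2.01-fold, limma adjusted p = 0.00337), and Cipc, whose protein inhibits CLOCK, peaked at 12.1 h (1.25-fold, limma adjusted p = 0.00741). They were the 2 called of 13 clock modifiers and outputs, against 0.508% of all genes, and 4 were called without ZT 1.

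**Figure D4:**
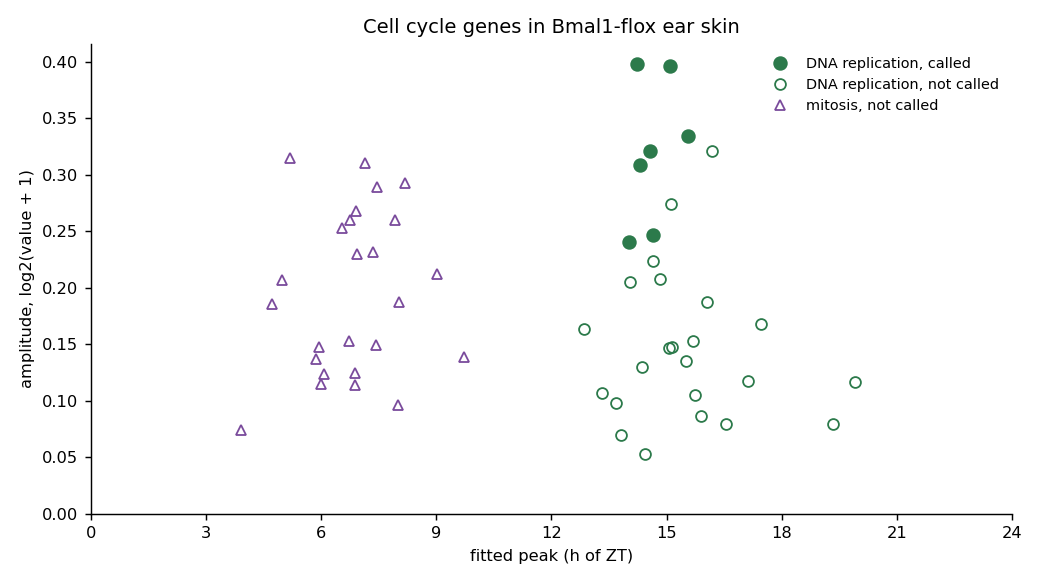
Amplitude on the log2(value + 1) scale against fitted peak hour for 30 DNA replication genes (circles, filled where called) and 25 mitosis genes (triangles, none called) in Bmal1-flox skin. Mitosis genes lie between 3.92 and 9.72 h, and the 7 called replication genes between 14.01 and 15.6 h.

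Glucocorticoid hormone has its own daily rhythm, and its receptor switches on a set of genes in most cells. Of 16 such targets tested, 3 were called, against 0.508% of all genes, and fitted peaks of 11 lay between 12 and 18 h, a window that held 25.3% of all genes tested. Tsc22d3, which encodes the leucine zipper protein GILZ (ENSMUSG00000031431, chromosome X, 140539528 to 140600659), was lowest at ZT 3 with 109, had a median of 179 and was highest at ZT 13 with 415. It peaked at 15.2 h (SE 0.501, 2.55-fold, limma adjusted p = 0.00294). Fkbp5, whose protein restrains the receptor, ran from 57.3 at ZT 5 to 294 at ZT 18 and peaked at 17.0 h (2.61-fold, limma adjusted p = 0.0172). Its next highest value was 162 at ZT 15, and its call ended in 6 of 29 alternatives. Fam107a peaked at 16.3 h (2.27-fold, limma adjusted p = 0.0115), and its highest value, 22.7, was at ZT 18 too. The library of ZT 18 had the lowest depth, 7.68 M counts. These targets share their libraries, and 2 to 4 of them were called when 1 library was left out. In labelled controls 1 of the 16 was called, against 0.452% of all genes. It was Pdk4, whose fitted peak in Bmal1-flox skin was at 7.24 h. An unadjusted p under 0.05 was found for 9 of the 16 in Bmal1-flox skin, against 11.2% of all genes. In labelled controls 6 had one, against 11.8%. Tsc22d3 was not called there (limma adjusted p = 0.37), and its fitted peak was at 14.8 h. Fkbp5 and Fam107a, not called there either, had amplitudes of 0.66 and 0.50, against 0.69 and 0.59 in Bmal1-flox skin. None of these 3 waves passed the test of a difference between the groups (limma adjusted p of at least 0.982).

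Metabolic genes with a called rhythm included Glul, encoding glutamine synthetase, with 260 at ZT 3, a median of 372 and 607 at ZT 18 (peak 16.4 h, 1.82-fold, limma adjusted p = 0.00334). Mthfd1l, of mitochondrial folate metabolism, peaked at 15.9 h (2.02-fold), and Slc1a5, a carrier of glutamine and other neutral amino acids, at 15.9 h (1.37-fold). Fmo1, a flavin monooxygenase gene, peaked at 16.8 h (1.62-fold, limma adjusted p = 0.000323). It was called in labelled controls too, with a peak at 16.5 h (limma adjusted p = 0.0193). The amplitude of Fmo1 was 0.35 in Bmal1-flox skin and 0.46 in labelled controls. Ephx1, encoding an epoxide hydrolase, peaked at 11.7 h (1.42-fold). The tetraspanin gene Tspan4 peaked at 14.9 h (1.77-fold) and was called in labelled controls too, with a peak at 14.3 h (limma adjusted p = 0.0442). Cys1, encoding the cilium protein cystin, peaked at 17.2 h (2.44-fold). Olig1, a transcription factor gene, was called at 15.9 h (2.17-fold), a call that ended in 17 of 29 alternatives.

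Genes that peaked near lights on included Il33, which encodes an alarmin of epithelial and stromal nuclei (ENSMUSG00000024810, chromosome 19, 29925114 to 29960718). Il33 was lowest at ZT 15 with 62.9, had a median of 88.1 and was highest at ZT 24 with 134. The values of ZT 12 through ZT 19 were all below its median. It peaked at 3.10 h (SE 0.398, 2.003-fold, limma adjusted p = 0.000269) and was called in labelled controls too, with a peak at 2.68 h and a fold of 1.63 (limma adjusted p = 0.0176). Mmp3, encoding the matrix protease stromelysin 1 (ENSMUSG00000043613, chromosome 9, 7445822 to 7455975), ran from 25.97 at ZT 13 through a median of 50.4 to 89.3 at ZT 24. Its peak was at 1.66 h (2.43-fold, limma adjusted p = 0.00179) in Bmal1-flox skin and at 2.03 h (2.29-fold, limma adjusted p = 7.29e-05) in labelled controls. Wsb1, of a ubiquitin ligase, peaked at 0.307 h (1.33-fold).

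**Figure D5:**
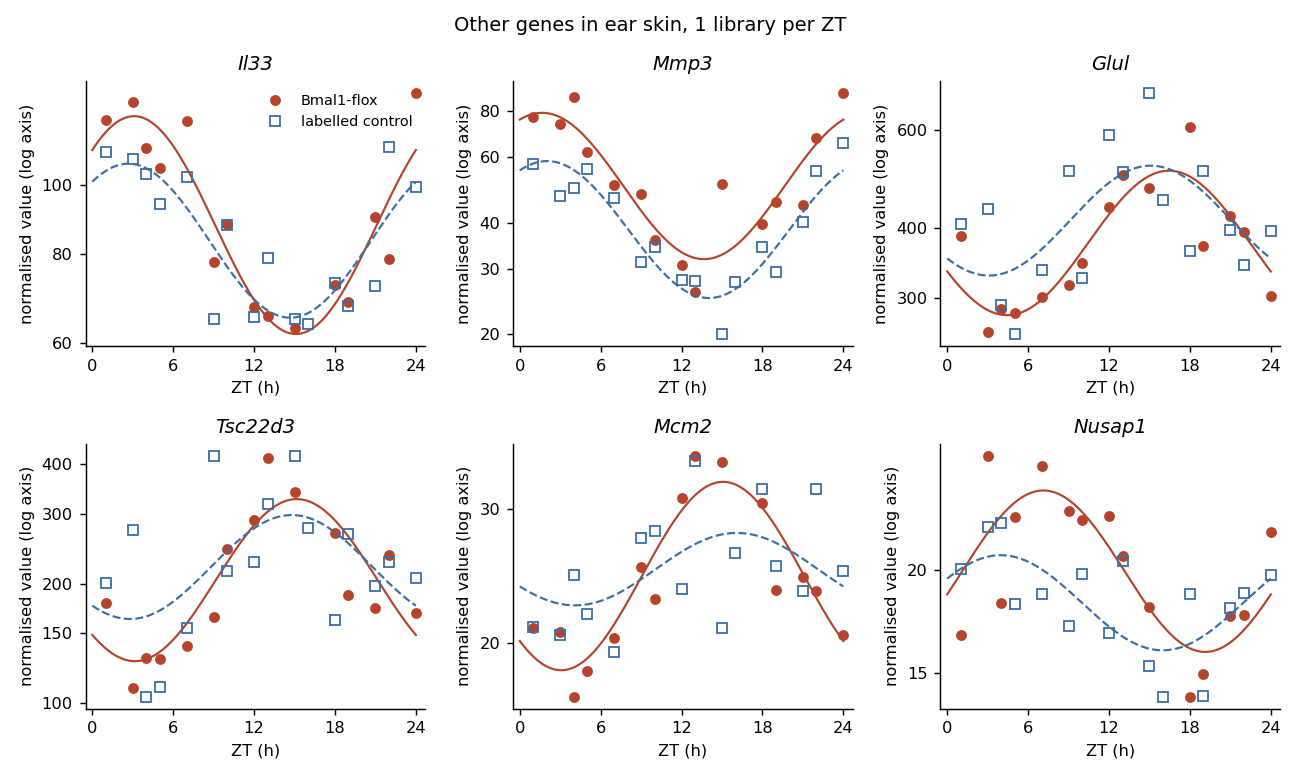
Normalised values (log axis) of 6 genes outside the core clock against ZT in hours, with 1 point per library and fitted waves, for Bmal1-flox (filled circles, solid lines) and labelled controls (open squares, dashed lines). In Bmal1-flox skin Il33 and Mmp3 peak at 3.10 and 1.66 h, Tsc22d3, Mcm2 and Glul at 15.2, 15.1 and 16.4 h, and Nusap1, not called, at 7.13 h.

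Genes whose Bmal1-flox values were most like those of Arntl over the 15 libraries were Cmtm7 (Pearson's r 0.93), Slc16a14 (0.893), Macf1 (0.878) and Clasp1 (0.868), and Macf1, of a cytoskeletal crosslinker, was called with a peak at 1.61 h (limma adjusted p = 0.0136). Most like Dbp were Hdac11 (0.909), Ephx1 (0.902), Rsad1 (0.892) and Ccnd2 (0.884), all 4 called. Cmtm7, Slc16a14 and Clasp1 were not called (limma adjusted p = 0.21, 0.0554 and 0.298). These values describe likeness over libraries that also share depth and tissue makeup. A gene picked for likeness to Arntl or Dbp over the same libraries takes on the wave of that gene. The call of Macf1 and the 4 calls of genes like Dbp are thus no separate result.

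Cell type markers were counted over 17 lists, of keratinocytes, fibroblasts, muscle, fat, vessels, nerve and blood cells among others. In Bmal1-flox skin 1 of their 180 tested members was called, against 0.508% of all genes, and 17 (9.44%) had an unadjusted p under 0.05, against 11.2% of all genes. The called member was Lep, of the adipocyte hormone leptin, which peaked at 18.4 h (limma adjusted p = 0.0437). Of 19 cornified envelope genes 1 was called, against 0.508% of all genes, and 2 had an unadjusted p under 0.05, against 11.2%. It was Tgm3, a transglutaminase gene, with a peak at 15.2 h (limma adjusted p = 0.0377). Of 22 genes of chemokines and their receptors 1 was called and 4 had an unadjusted p under 0.05, against the same shares. It was Cxcl14, which is made in the epidermis, with a peak at 1.44 h (limma adjusted p = 0.0366). Each of these 3 calls ended in 17 or more of 29 alternatives. All 16 hair follicle and nail genes had an unadjusted p under 0.05 in labelled controls, against 0 in Bmal1-flox skin. So did 11 of 14 collagen and fibroblast, 6 of 12 mast cell and 5 of 14 macrophage genes, against 2, 0 and 0. Muscle and erythroid lists also had more in labelled controls, while mature neutrophil, keratin, cartilage, melanocyte and Schwann cell lists had fewer. The share of all genes there was 11.8%. In Bmal1-flox skin collagen and fibroblast genes summed to a median of 13840, with the highest sum, 18850, at ZT 19. Skeletal muscle genes of Bmal1-flox skin summed to 6301 at ZT 19 and to 13700 at ZT 24. The part of such differences in tissue makeup in the rhythms was not tested, and in whole tissue a change in cell number and a change in RNA per cell cannot be told apart.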

How the data were processed

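The authors deposited 1 table of normalised signal for ear skin. Per the labels' protocols, libraries came from 200 ng of total RNA (NEBNext Ultra) with 50-nucleotide single reads (HiSeq2500), and adapters were removed with Cutadapt 1.7.1. Per the same protocols reads were mapped to the GRCm38 transcriptome of Ensembl build 84 with RSEM 1.2.20 and Kallisto 0.43.1. The submitters' processing notes name mm10, CASAVA 1.8, RSEM 1.7.1 and limma 3.46. The normalization is not given in the sources used here. Each deposited signal column times 0.5 over its minimum gave estimated counts plus 0.5, with 36.5 to 50.1% of Bmal1-flox values within 0.0001 of a whole number, and their sums are the depth.

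Here values were taken as log2(value + 1), and the 15946 of 18556 genes with a mean of at least 1 over the 47 skin libraries were fitted with limma 3.58.1 in R 4.3.3 with a mean-variance trend. The test was the F test of a 24 h cosine and sine, two-sided, with Benjamini-Hochberg adjustment over all genes tested and a threshold of 0.05. Waves were fitted within each group, and a difference of waves in 2 groups together. The script was tested on simulated data. Symbols and coordinates came from GENCODE M21 by identifier, with 75 unmatched.

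Named genes were the tested core clock genes, the 14 others with the smallest p and the 8 called with the largest amplitude. Named too were up to 4 called members of each gene list, or its 2 smallest p, the genes leading each difference of waves, and the 4 most like Arntl and Dbp. Some genes under this rule are not reported here. The members, lists and rule were chosen with earlier results of these data known. Alternatives varied the pseudocount, filter, scaling, variance model, wave, drift, distribution, block and libraries. Intervals reflect only the spread of single mice around the wave.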

Additional observations from a re-analysis of the deposited data

Results flagged for a closer look

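The waves of 6 genes differed between Bmal1-flox and iDTR skin by the test of the difference (limma adjusted p = 0.0345 for each). Dbp and Nfil3 are described above. Tmprss2, encoding a serine protease, had a fitted peak at 19.1 h and an amplitude of 0.21 in Bmal1-flox skin, and 6.58 h and 0.44 in iDTR skin. Mc1r, encoding the melanocortin receptor of pigment cells, had 12.6 h and 0.35 in Bmal1-flox skin and 21.9 h and 0.39 in iDTR skin, on values between 0.587 and 3.07 in Bmal1-flox skin. Mastl, encoding the mitotic kinase Greatwall, had 5.94 h and 0.30 in Bmal1-flox skin and 21.6 h and 0.67 in iDTR skin. Gm21983, an unnamed gene model, had 0.83 h and 1.44 in Bmal1-flox skin and 14.9 h and 1.06 in iDTR skin. Its values ran from 0.0287 to 13.6 in Bmal1-flox skin, with medians of 2.75 there and 0.0444 in iDTR skin. The value of 0.0287 and the iDTR median are those of libraries with no recovered counts of it. Its fitted waves thus depend on which libraries held any counts. None of these 4 had a called wave in either group. All 6 differences were lost in at least 28 of 41 or 42 alternatives, and genotype, toxin and Gt(ROSA)26Sor cannot be told apart between these groups.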

How the results depend on the processing

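The Bmal1-flox count of 81 genes became 50 without the library of ZT 3 and 95 without that of ZT 24, its range over libraries left out, and 52 with the 3 groups sharing the spread. Core clock calls were 13 to 14 of 19 when a library was left out. With values turned into normal scores, 0 genes and 0 core clock genes were called by the moderated test, and 8 genes and 6 core clock genes by an ordinary F test, added after the data were seen, on the same scores. Normal scores give every gene the same total variance by construction. Weights for each library by voom, also added then, and the removal of ZT 4 and ZT 24 changed neither count by over 1.5 times. The labelled control count of 72 became 39 without a mean-variance trend. The iDTR count of 15 became 5 without that trend, 615 with array weights and 1731 with the 3 groups sharing the spread. Differences from labelled controls stayed at 0 genes in all alternatives but 1, being 0 to 1 when a library was left out, with the 1 without the labelled control of ZT 13. The 6 differences from iDTR became 0 with a pseudocount of 5, 0 with voom weights, 0 without ZT 16, 3 with quantile normalization, 2 without the trend, 346 with array weights, 241 with shared spread and 0 to 164 when a library was left out. The cause of these shifts was not tested. The replicate number marks the ZT and not a shared animal. Same-numbered residuals of Bmal1-flox and labelled control libraries correlated between -0.15 and 0.138, with 0 of 15 best with their own number, and a replicate block gave 0 differences from labelled controls and 0 from iDTR. Quantile normalization moved the median of all genes tested by at most 0.021 (log2) in the Bmal1-flox libraries.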

Other observations

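Other genes of the 81 are named here, chosen after their values were seen. The aggrecan-cleaving protease genes Adamts4 and Adamts5 peaked at 0.217 h (2.24-fold, limma adjusted p = 0.0164) and 2.54 h (1.48-fold, limma adjusted p = 0.0366). Adamts4 was low throughout, at 0.495 to 3.63, and Adamts5 ran from 24.6 at ZT 13 to 47.6 at ZT 3. The matrix genes Spon2 and Col5a3 peaked at 3.17 h (3.05-fold) and 4.92 h (1.53-fold), and both were called in labelled controls too. Loxl4, encoding a crosslinking enzyme of collagen, peaked at 4.46 h (1.84-fold, limma adjusted p = 0.0238). The cyclin gene Ccnd1 peaked at 13.3 h (1.46-fold, limma adjusted p = 0.0113), near Ccnd2, while the phosphatase gene Cdc25b, which drives entry into mitosis, peaked at 7.49 h (1.43-fold, limma adjusted p = 0.0115). Cdc25b was called in labelled controls too, with a peak at 5.32 h (limma adjusted p = 0.0385). Slc7a5, a carrier of large neutral amino acids, peaked at 19.0 h (1.81-fold), from 45.9 at ZT 5 to 117 at ZT 18. G0s2, encoding an inhibitor of fat breakdown, peaked at 16.9 h (1.81-fold).

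Several lists with no called member had fitted peaks at other hours in Bmal1-flox skin than in labelled controls, given here as counts with no test. Of 16 immediate early genes, 16 had a fitted peak between 12 and 18 h in Bmal1-flox skin, and 15 had one between 18 and 24 h in labelled controls. The sum of the 16 genes in Bmal1-flox skin was highest in the library of ZT 10, outside those fitted hours, at 4129 against a median of 1697. That library held the highest Bmal1-flox values of Fos (719, against a median of 212), Egr2 (75.7) and Atf3 (128, against a median of 14.5), among others. Of 24 cholesterol synthesis genes, 16 peaked between 12 and 18 h in Bmal1-flox skin and 16 between 18 and 24 h in labelled controls. Of 26 cytosolic ribosomal protein genes, 22 peaked between 6 and 12 h in Bmal1-flox skin and 21 between 12 and 18 h in labelled controls, with a median amplitude of 0.03 in Bmal1-flox skin. Each 6 h of the day held 23.1 to 26.3% of the fitted peaks of all genes tested in Bmal1-flox skin, and 22.8 to 27.4% in labelled controls. In Bmal1-flox skin 2 immediate early, 3 cholesterol synthesis and 0 ribosomal protein genes had an unadjusted p under 0.05, against 11.2% of all genes. In labelled controls 3, 0 and 1 had one, in that order, against 11.8%. Members of such a list share their libraries, so a single library can set the hour of many of them.

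Of 15 fasting response genes none was called in Bmal1-flox skin, against 0.508% of all genes, and 2 were in labelled controls, against 0.452%. In Bmal1-flox skin 2 were called without ZT 4, 2 without ZT 24 and 2 without both. Pdk4, which restrains glucose oxidation, ran from 9.35 to 58.3 with a fitted peak at 7.24 h in Bmal1-flox skin (limma adjusted p = 0.0931), and from 9.92 to 68.5 with a peak at 10.8 h in labelled controls (limma adjusted p = 0.0203). Ucp3, a mitochondrial carrier gene of muscle, had a fitted peak at 7.40 h in Bmal1-flox skin (limma adjusted p = 0.0518) and at 10.9 h in labelled controls (limma adjusted p = 0.0436). The differences of these waves did not pass the test. None of 17 temperature-responsive and heat shock, 17 interferon-stimulated, 24 oxidative phosphorylation and 22 proteasome genes was called by limma in Bmal1-flox skin, against 0.508% of all genes, with 1, 1, 0 and 2 of them, in that order, at an unadjusted p under 0.05, against 11.2% of all genes.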
